A study of Mus musculus with 6 samples.

Results

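Krüppel-like factors are the subject here: 10 genes, Klf2, Klf3, Klf4, Klf5, Klf6, Klf7, Klf9, Klf10, Klf13 and Klf15, chosen by name from the platform's gene symbols. They are read by 34 of the 34945 probe sets with a single symbol and are 10 of the 18193 genes so represented. The arrays hold RNA of uterine epithelium of pregnant mice, 6 samples in 3 groups of 2. The groups are Sox17 heterozygous mice (Sox17GFP/+, one allele with GFP) on day 4 of pregnancy, wild-type (WT) mice on day 4, and WT mice on day 1, when the vaginal plug was seen. The labels give no strain or age and state no hormone treatment and no pooling of animals. Nothing states that the numbered samples come from separate animals, so p-values measure the spread between these samples, which may be technical, and 2 arrays per group limit every value.

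Krüppel-like factors are transcription factors that bind CACCC boxes and GC-rich sites of promoters through zinc fingers at the end of the protein. The family falls into branches by partner: KLF3 recruits the CtBP corepressors, KLF9, KLF10 and KLF13 recruit the SIN3A corepressor, and KLF2, KLF4, KLF5, KLF6 and KLF7 act largely as activators. In the mouse uterus KLF9 is a partner of the progesterone receptor and its loss lowers fertility, KLF5 in the epithelium is needed for implantation, and KLF15 was found to hold back the DNA replication licensing gene Mcm2 under progesterone. On day 1 the uterus is under estrogen, and by day 4 progesterone prevails.

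The values are probe set signals on a linear scale, and a log2 change is the difference of the mean log2(signal + 1) of 2 groups, with its standard error from limma after ±. A gene was represented by its brightest probe set and called at a Benjamini-Hochberg adjusted p under 0.05 over all genes. WT day 4 array 277 stood apart in the dim range: its median signal was 138, against 66.2 to 78.0 on the other arrays. Sox17 read 30189 and 28810 in heterozygotes, 34794 and 35060 in WT on day 4, and 7738 and 8671 in WT on day 1 at its brighter probe set. The other Sox17 probe set read 13304 and 13061, 22781 and 18473, and 2394 and 2478 in the same order, a difference of -0.64 ± 0.23 between genotypes, against -0.24 ± 0.22 at the brighter one, and neither passed in limma (adjusted p = 0.407 and 0.654). Whether either also reads the GFP allele is unknown. The 10 epithelial markers measured summed to signals of 165305 and 165949 in heterozygotes, 156442 and 170122 in WT on day 4, and 168943 and 174899 in WT on day 1. The sum hides single markers: in WT day 4 against day 1, Krt7 was called lower (-2.33 ± 0.20) and Cldn3 higher (1.39 ± 0.21). The 6 smooth muscle markers summed to 172 and 190, 309 and 392, and 891 and 893 in the same order of groups.

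**Figure D1:**
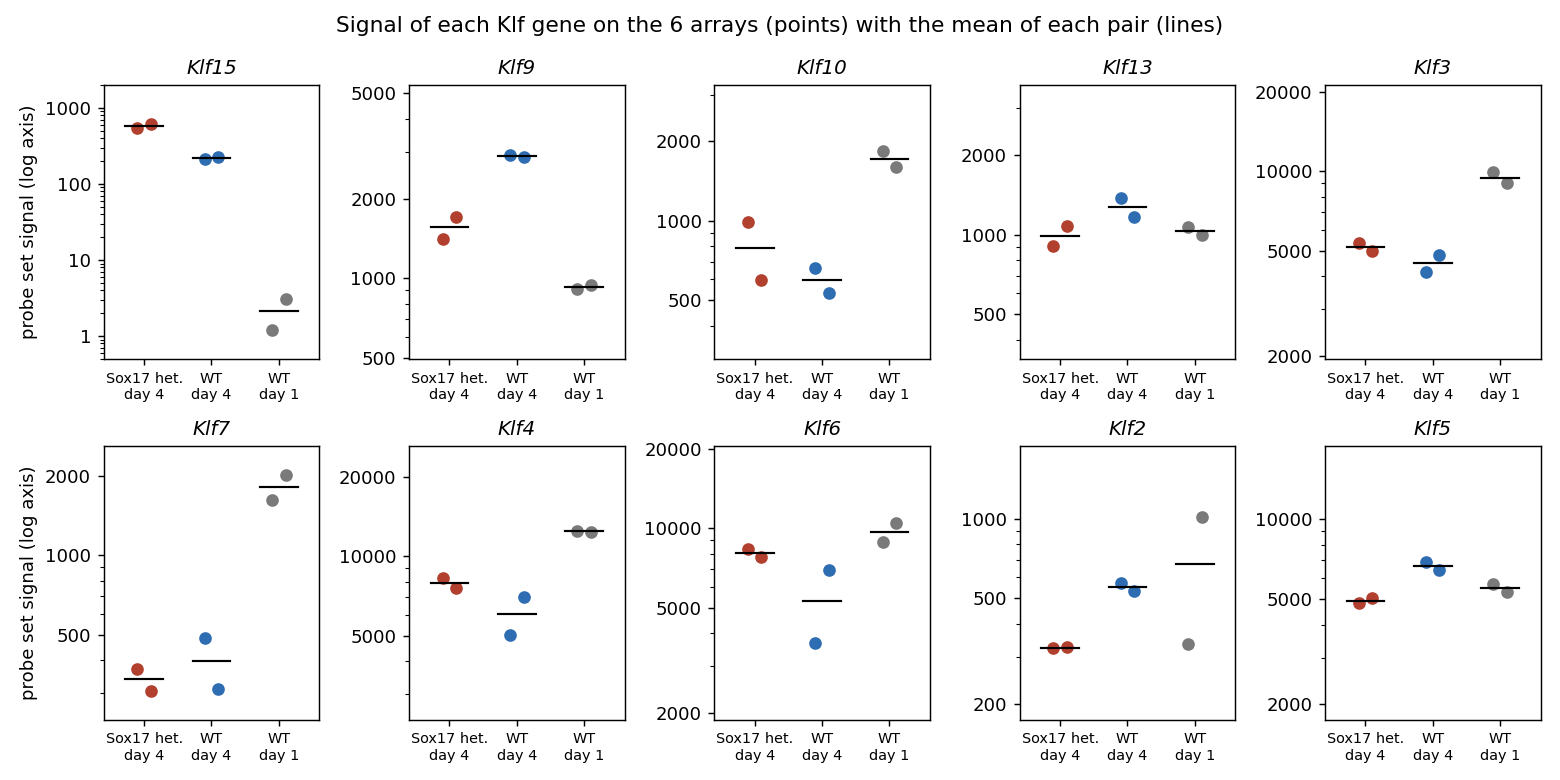
Probe set signals (log axis) of the 10 Klf genes on each array, as points, for Sox17 heterozygous day 4, WT day 4 and WT day 1, with lines at the mean of each pair. Klf15 sits between 551 and 609 in heterozygotes, at 211 and 225 in WT on day 4 and at 3.10 or below in WT on day 1, whereas Klf9 is highest in WT on day 4.

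The first comparison asked how the family differed between WT day 4 and WT day 1. Klf15 and Klf9 rose on day 4, and Klf7 and Klf3 fell. Klf4 and Klf10 read lower on both day 4 arrays but missed the threshold, which both passed with quantile normalization. Klf5, Klf6 and Klf13 also did not pass, and Klf2 was split by a difference between the day 1 arrays. In all, 2 of 10 genes were called higher, where 7.58% of all genes were, and 2 of 10 lower, where 5.73% were, in limma with Benjamini-Hochberg adjustment. The median log2 change of the 10 genes was -0.51, against 0.30 over all genes. At an unadjusted p under 0.05 there were 6 of 10, against 29.7% of all genes, and in 9 of 10 the day 4 and day 1 arrays did not overlap, as for 56.6%. Over all genes 1379 were higher and 1042 lower, a split that turned to 710 and 865 once the arrays were brought to 1 median, where Klf15 and Klf7 alone were called. In bulk samples, fewer cells of a type and less RNA per cell cannot be told apart.

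The calls depended on the number of arrays. Without WT day 1 array 302 or 303, when the 1 array left is assumed to vary like the other groups, limma's default fit called 0 Klf genes and 0 genes in all, although 3740 and 3946 genes had an unadjusted p under 0.05. The log2 changes in these 2 fits were -2.37 and -2.05 for Klf7, 1.62 and 1.68 for Klf9, and -1.01 and -1.15 for Klf3. When limma instead let the prior spread follow signal level (an intensity trend), the fit of all arrays called 7 of 10, against 24.8% of all genes. Without heterozygous array 253 or 281, which bear only on the shared estimate of the spread, Klf15 alone was called.

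**Figure D2:**
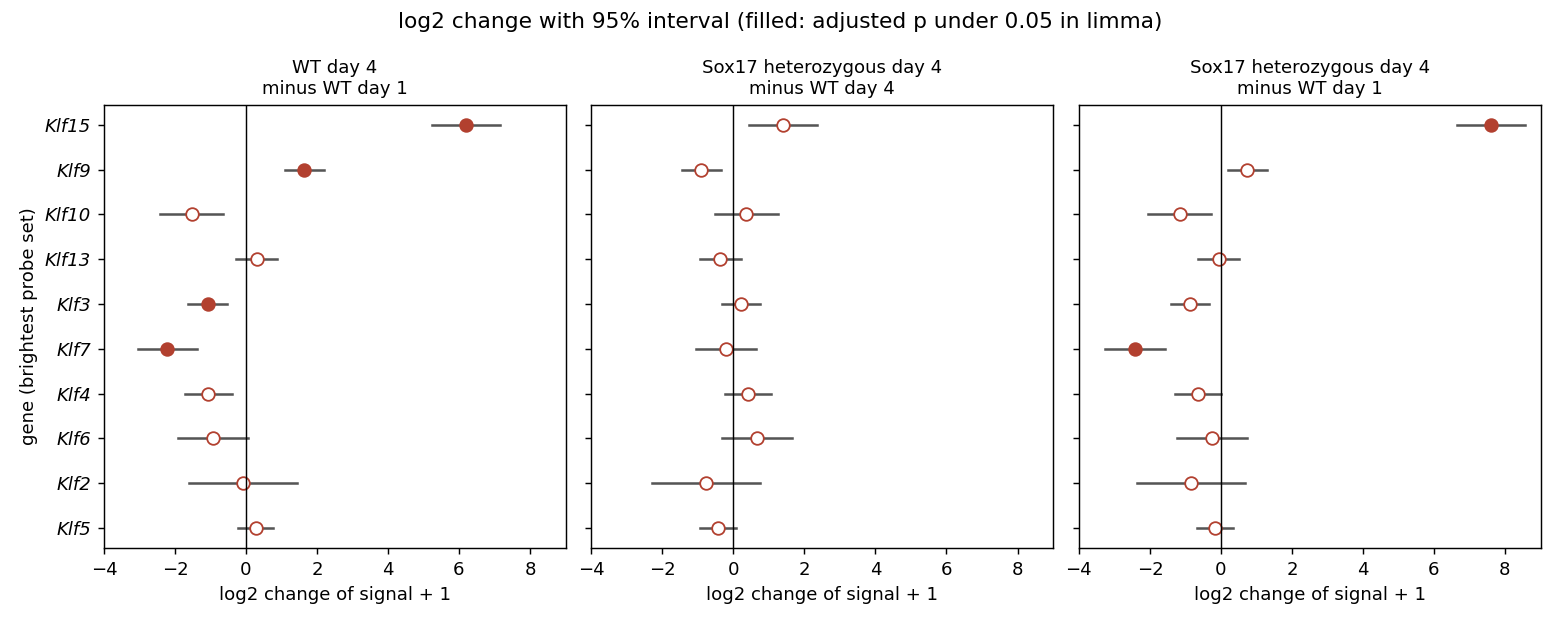
log2 change of signal + 1 of each Klf gene (points) with its 95% interval from limma (lines) in the 3 comparisons, filled where the adjusted p was under 0.05. Klf15, Klf9, Klf3 and Klf7 are filled for day in WT, none for genotype on day 4, and Klf15 and Klf7 for Sox17 heterozygous day 4 minus WT day 1.

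The promoters of the 4 called genes are shown because these genes differed between the days and because family members bind the letters marked. Each runs 5′ to 3′ over 250 bases before and 50 after the gene's start (RefSeq, GRCm38.p6), with CACCC and GGGCGG on either strand in capitals.
Klf15, chr6:90462326-90462625, + strand: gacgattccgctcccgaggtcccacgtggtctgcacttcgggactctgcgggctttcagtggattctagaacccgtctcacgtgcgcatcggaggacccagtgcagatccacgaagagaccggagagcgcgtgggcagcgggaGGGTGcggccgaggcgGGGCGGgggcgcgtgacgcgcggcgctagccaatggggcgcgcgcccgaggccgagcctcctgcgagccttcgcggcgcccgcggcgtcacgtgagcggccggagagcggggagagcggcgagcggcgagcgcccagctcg
Klf9, chr19:23140976-23141275, + strand: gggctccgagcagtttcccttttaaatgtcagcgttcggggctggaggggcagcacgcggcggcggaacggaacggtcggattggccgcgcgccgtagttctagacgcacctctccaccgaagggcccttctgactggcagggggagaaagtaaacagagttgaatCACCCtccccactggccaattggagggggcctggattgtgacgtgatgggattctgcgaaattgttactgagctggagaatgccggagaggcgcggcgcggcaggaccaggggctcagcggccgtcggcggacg
Klf7, chr1:64121340-64121639, - strand: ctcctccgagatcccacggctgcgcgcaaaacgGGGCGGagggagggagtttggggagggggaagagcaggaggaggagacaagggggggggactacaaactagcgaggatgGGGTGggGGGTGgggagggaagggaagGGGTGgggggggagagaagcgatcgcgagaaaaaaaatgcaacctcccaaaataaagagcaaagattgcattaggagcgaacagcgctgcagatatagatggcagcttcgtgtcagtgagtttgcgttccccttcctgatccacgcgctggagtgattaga
Klf3, chr5:64803271-64803570, + strand: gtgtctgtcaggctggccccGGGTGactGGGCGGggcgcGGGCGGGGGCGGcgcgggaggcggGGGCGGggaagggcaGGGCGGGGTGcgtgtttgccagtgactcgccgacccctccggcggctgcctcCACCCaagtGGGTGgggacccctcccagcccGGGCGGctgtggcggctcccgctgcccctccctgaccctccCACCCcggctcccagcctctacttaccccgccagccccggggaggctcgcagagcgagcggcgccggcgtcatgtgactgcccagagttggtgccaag
The Klf3 promoter held 5 CACCC and 6 GGGCGG matches, of which 1 pair shared bases, whereas that of Klf7 held 3 and 1, that of Klf15 1 and 1, and that of Klf9 1 and 0. Promoters were found for 8 of the 10 genes. One or the other motif was present in 8 of 8, and in 69.4% of 32851 promoters of the same length. The SOX core letters ACAAT, on either strand, occurred 2 times in the Klf9 promoter, once in that of Klf13 and not in the windows of the other 6, and in 31% of all promoters. A match is only a description of these letters.

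Klf15 is regulated by glucocorticoids and progestins in several tissues and controls amino acid and glucose use in liver and muscle. Its only probe set, 1448181_at, read 551 and 609 in heterozygotes, 211 and 225 in WT on day 4, and 1.19 and 3.10 in WT on day 1. All 3 groups were apart, and the day 1 signals were at the bottom of the scale. It rose by 6.19 ± 0.36 with day in WT (adjusted p = 0.00646, n = 2 arrays per group). Against signals this dim the size of the change depends on the pseudocount: with 32 in place of 1 the log2 change was 2.87 (adjusted p = 0.000892 in limma). Without WT day 1 array 302 or 303 the log2 change was 5.74 or 6.64 and its adjusted p at most 0.0652 in limma.

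Klf9 is a rapid target of glucocorticoid and thyroid hormone in other tissues, and its protein works with the progesterone receptor in endometrial cells. Its brightest probe set, 1456341_a_at, read 1400 and 1710 in heterozygotes, 2930 and 2872 in WT on day 4, and 907 and 944 in WT on day 1. The WT pairs were tight and the heterozygous arrays lay between them. Klf9 rose by 1.65 ± 0.20 with day in WT, a 3.13-fold change with a 95% interval of 2.14 to 4.58 (adjusted p = 0.0169, n = 2 arrays per group). All 7 Klf9 probe sets read higher on day 4, by log2 changes of 0.67 to 1.65. In the limma fit over every probe set, 2 of the 7 passed (adjusted p = 0.0265 and 0.0409), where 5.04% of all probe sets were called higher.

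Klf10, first described as an early gene induced by TGF-beta, and Klf13, a close relative of Klf9, share the SIN3A branch. Klf10 read 988 and 596 in heterozygotes, 664 and 533 in WT on day 4, and 1839 and 1595 in WT on day 1. Both day 4 groups lay below day 1, yet its WT log2 change of -1.52 ± 0.33 missed the threshold (adjusted p = 0.0547). Klf10 was called lower in limma with quantile normalization (adjusted p = 0.0421) and with an intensity trend (adjusted p = 0.000853). Klf13 read 904 and 1075, 1378 and 1169, and 1066 and 995 in the same groups, a WT change of 0.30 ± 0.22 (adjusted p = 0.421). For Klf13 this equalled the median of all genes, but with quantile normalization it was 0.28, against a median of 0.07.

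Klf3, a repressor that acts through CtBP, read 5343 and 5002 in heterozygotes, 4156 and 4799 in WT on day 4, and 9920 and 8996 in WT on day 1 at its brightest probe set, 1454666_at. The arrays of either day 4 group stood well below those of day 1. It fell by 1.08 ± 0.20 in WT, to 0.473 of its day 1 level (adjusted p = 0.0393, n = 2 arrays per group). Of 7 Klf3 probe sets, 6 read lower on day 4. In the limma fit over every probe set 2 of them passed (adjusted p = 0.0328 and 0.0415), the brightest one did not (adjusted p = 0.0596), and 4.15% of all probe sets were called lower. The probe set that read higher, at 0.64 ± 0.37, had signals below 100 on all 6 arrays. Without WT day 4 array 277 or 284 Klf3 was no longer called, at log2 changes of -0.98 and -1.18 (adjusted p = 0.0839 and 0.0527 in limma).

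Klf7, known from the development of neurons and fat tissue, had the largest decrease of the family. Its brightest probe set, 1419354_at, read 371 and 307 in heterozygotes, 486 and 312 in WT on day 4, and 1619 and 2019 in WT on day 1. The day 4 groups overlapped each other and lay far below day 1. It fell by 2.21 ± 0.31 in WT, a level 4.63-fold lower (adjusted p = 0.0219, n = 2 arrays per group). All 4 Klf7 probe sets were called lower in the fit over every probe set, by log2 changes of -2.83 to -2.21 (adjusted p = 0.0236 to 0.0416 in limma).

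Klf4, a factor of epithelial barrier formation and cell cycle exit in skin and gut, read 8306 and 7559 in heterozygotes, 5052 and 7028 in WT on day 4, and 12489 and 12360 in WT on day 1. The day 1 pair was the highest, and the WT log2 change was -1.06 ± 0.24 (adjusted p = 0.0637), with -1.10 ± 0.27 at its other probe set. Klf4 was called lower in limma with quantile normalization (adjusted p = 0.0367) and with an intensity trend (adjusted p = 0.00125). Klf6, a widely expressed factor induced by injury, read 8329 and 7764, 3677 and 6959, and 8839 and 10494 in the same groups. The low value of array 277 set the spread, and its WT change was -0.93 ± 0.37 (adjusted p = 0.188) in limma. Without array 284 Klf4 (-1.30) and Klf6 (-1.39) were called lower, but WT day 4 was then array 277 alone, assumed to vary like the other groups. At the other Klf4 probe set array 277 read above 284, with 3608 against 3132, and so did 3 of the 4 dimmer Klf6 probe sets, one with 5907 against 4498. All 5 Klf6 probe sets read lower on day 4, by log2 changes of -0.93 to -0.59, and none passed.

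Klf5, which drives division and differentiation of epithelia, read 4814 and 5027 in heterozygotes, 6885 and 6417 in WT on day 4, and 5707 and 5305 in WT on day 1. WT on day 4 was the highest of the groups by a small margin (0.27 ± 0.19 against day 1, adjusted p = 0.402). Klf2, best known from endothelium under flow and from resting T cells, read 323 and 327, 571 and 534, and 336 and 1016. The day 1 arrays differed by 3.02-fold and enclosed those of WT on day 4, the heterozygous arrays were the lowest, and the WT change of -0.08 ± 0.57 (adjusted p = 0.942) turned to 0.71 without day 1 array 303.

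**Figure D3:**
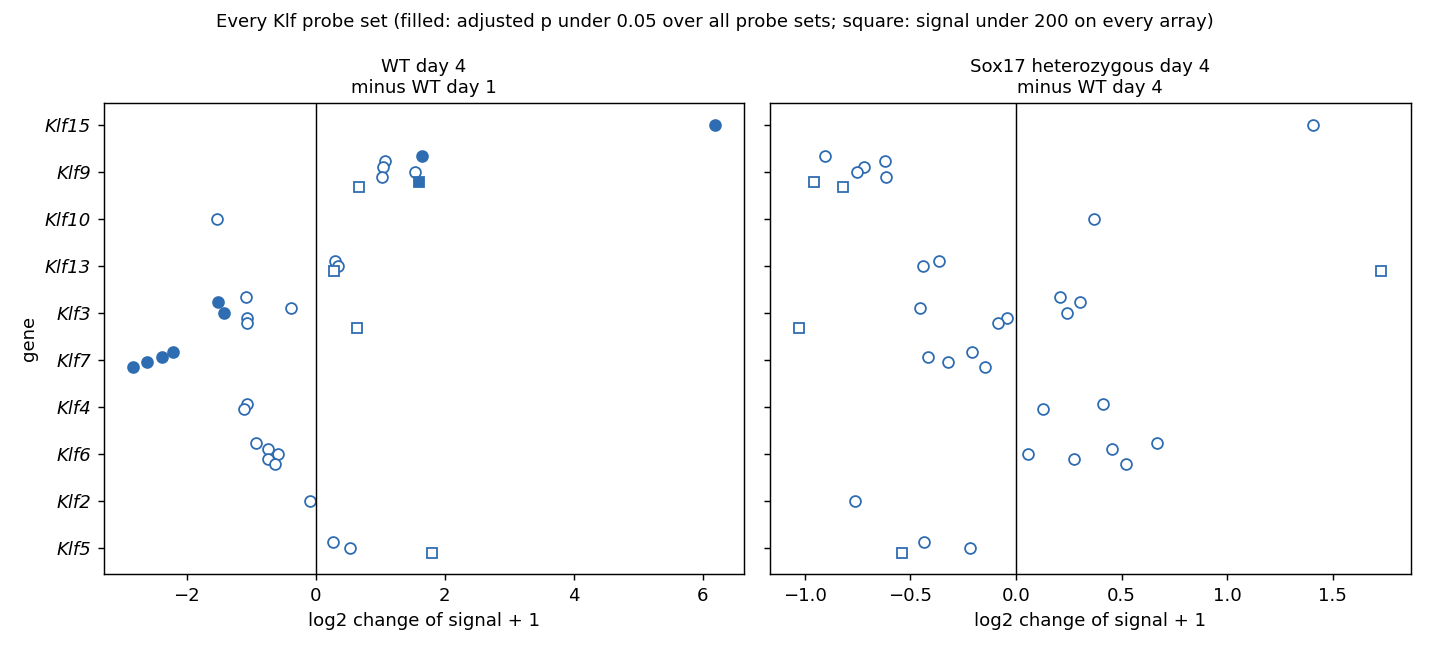
log2 change of signal + 1 of each of the 34 Klf probe sets by day in WT and by genotype on day 4 (axes differ), filled where the adjusted p over all probe sets was under 0.05, with squares for signals under 200 on every array. All 4 Klf7 probe sets and 6 of 7 Klf3 probe sets lie below 0 for the day comparison, and the 7 Klf9 probe sets lie above 0 for day and below 0 for genotype. Both panels use the same WT day 4 arrays.

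The second comparison asked what changed in the Sox17 heterozygous epithelium on day 4. The largest differences in the family were in the genes that had risen with day: Klf15 read higher and Klf9 lower in heterozygotes than in WT. This comparison and the first share the WT day 4 arrays, with opposite sign. The rise of Klf9 with day and its lower level in heterozygotes are therefore not independent. Neither passed, and 0 of 10 Klf genes and 0% of all genes were called in limma's default fit. At an unadjusted p under 0.05 there were 2 Klf genes, Klf15 and Klf9, where 13.2% of all genes reached it. In 8 of 10 genes the heterozygous and WT arrays did not overlap, as for 48.5% of all genes.

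Klf9 was at -0.91 ± 0.20 in heterozygotes against WT on day 4 (adjusted p = 0.241, n = 2 arrays per group), a ratio of 0.534 with an unadjusted 95% interval of 0.365 to 0.780. All 7 of its probe sets read lower in heterozygotes, by log2 changes of -0.96 to -0.62. At 6 of them the arrays did not overlap, as for 48.5% of all genes at their brightest probe set. The 7 probe sets read the same samples and are not replicates. With an intensity trend in limma Klf9 was called lower (adjusted p = 0.0112), the 1 member of 10 called, where 3.52% of all genes were. That call ended without heterozygous array 253 (-0.76, adjusted p = 0.211), where 1 array is left in that group, and with medians made equal (-0.73, adjusted p = 0.385). Without WT array 284 the trend called Klf4 and Klf6 higher as well, on the same single readings of array 277.

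Klf15 was at 1.41 ± 0.36 (adjusted p = 0.269, n = 2 arrays per group), a ratio of 2.65 with an unadjusted 95% interval of 1.36 to 5.15. The intensity trend did not call it (adjusted p = 0.309), and a pseudocount of 32 gave 1.29 (adjusted p = 0.0819 in limma). Its day 4 arrays were close within each group, 1.11-fold apart in heterozygotes and 1.07-fold in WT.

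Among the other members, Klf6 was at 0.67 ± 0.37, Klf4 at 0.41 ± 0.24, Klf10 at 0.37 ± 0.33 and Klf3 at 0.21 ± 0.20. On the other side were Klf2 at -0.76 ± 0.57, Klf5 at -0.43 ± 0.19, Klf13 at -0.37 ± 0.22 and Klf7 at -0.21 ± 0.31. Their adjusted p-values ran from 0.415 to 0.774. These are values of the brightest probe sets. Of 7 Klf3 probe sets, 3 read higher and 4 lower in heterozygotes. Of 3 Klf13 probe sets, 2 read lower and 1 higher, at 1.73 ± 0.78 with signals of at most 51.3. The other Klf4 probe set was at 0.13 ± 0.27. All probe sets of Klf6 read higher, and all of Klf5 and Klf7 lower. The 95% interval of Klf7 reached from -1.04 to 0.63 and that of Klf2 from -2.28 to 0.75, so a 2-fold difference lies within both. It also lies within those of Klf6 (-0.32 to 1.66), Klf10 (-0.51 to 1.25) and Klf4 (-0.24 to 1.07).

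The third comparison set Sox17 heterozygous epithelium on day 4 against WT on day 1, in which day and genotype differ together. Klf15 was higher (7.60 ± 0.36, adjusted p = 0.00732, or 4.16 with a pseudocount of 32 for the same dim day 1 signals) and Klf7 lower (-2.42 ± 0.31, adjusted p = 0.0236), n = 2 arrays per group, so that 1 of 10 genes was called higher, as were 5.07% of all genes, and 1 lower, as were 4.48%. At an unadjusted p under 0.05 there were 5 of 10, against 25.9% of all genes, and 9 of 10 did not overlap between groups, against 62.3%. The Klf15 probe set and all 4 of Klf7 passed in the fit over every probe set, where 3.18% were called higher and 2.89% lower, and the Klf7 changes were -2.97 to -2.42. Klf3 (-0.87 ± 0.20, adjusted p = 0.0727), Klf9 (0.74 ± 0.20, adjusted p = 0.107) and Klf10 (-1.16 ± 0.33, adjusted p = 0.113) did not pass. This comparison shares the day 1 arrays with the first and the heterozygous arrays with the second. Leaving out any 1 of the 4 arrays compared left 0 Klf genes called in the default fit, which then called 0 genes in all, with 3031 to 3428 genes at an unadjusted p under 0.05. The intensity trend called 6 Klf genes with all arrays, against 21.3% of all genes.

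**Figure D4:**
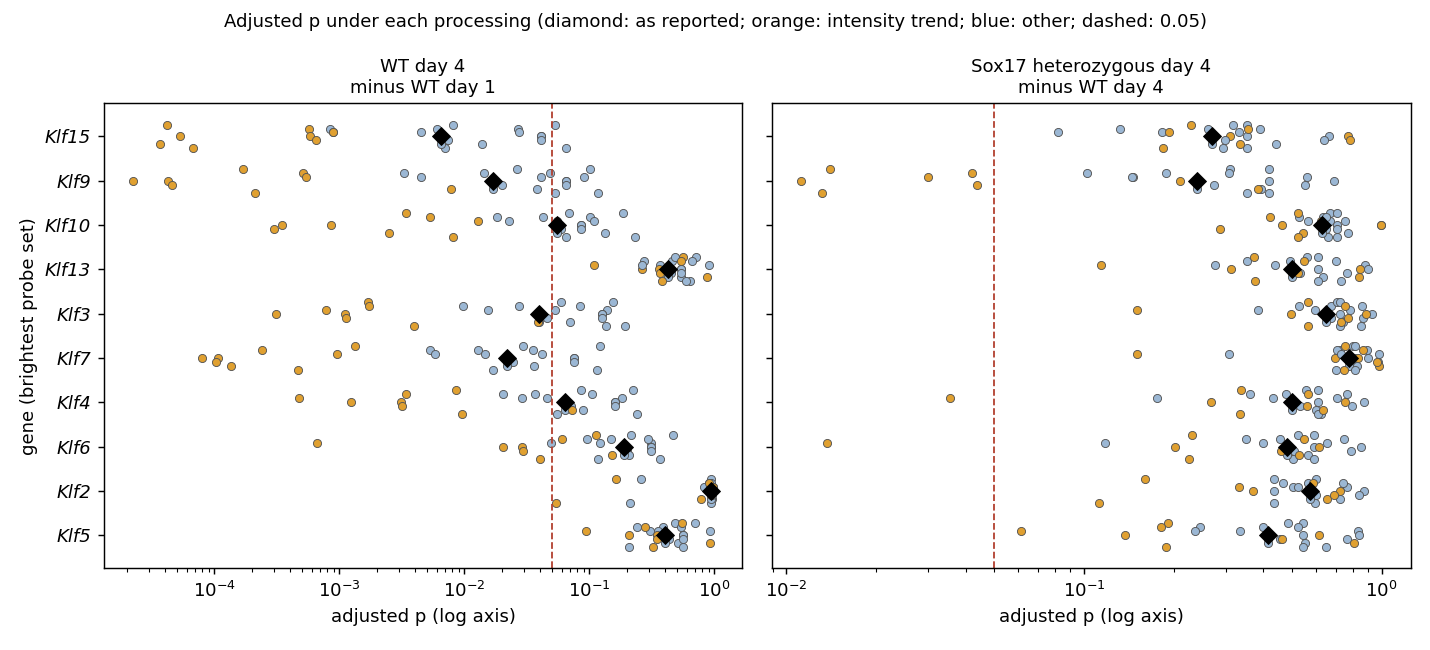
Adjusted p (log axis) of each Klf gene under every processing alternative, by day in WT and by genotype on day 4, with diamonds for the values as reported, orange points for fits with an intensity trend, blue points for the others and a dashed line at 0.05. Klf9, Klf4 and Klf6 are the genes with any point under 0.05 in the genotype comparison, all from intensity trend fits.

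Of 13 other KLF and SP genes measured, 0 were called with day or with genotype on day 4 in limma's default fit. An unadjusted p under 0.05 was reached by 3 of them with day and 1 with genotype, and the intensity trend called 1 and 0. The repressor Klf12, a relative of Klf3, read 483 and 438 in heterozygotes, 398 and 108 in WT on day 4, and 8.16 and 23.3 in WT on day 1. The day 1 signals are low, so its changes depend on the pseudocount of 1. It was at 3.81 ± 0.81 in WT day 4 against day 1 (adjusted p = 0.0526) and passed in heterozygotes against WT day 1 (4.95 ± 0.81, adjusted p = 0.0365). Among 16 cofactors and ubiquitin ligases, 2 rose with day and 1 fell. Wwp1, a ligase that marks KLF2 and KLF5 for breakdown, rose by 1.69 ± 0.23 and the deacetylase Hdac1 by 1.24 ± 0.20, and the ligase Itch fell by 1.16 ± 0.24. None of the 16 passed between genotypes (1 at an unadjusted p under 0.05, and 0 with an intensity trend). The shares among all genes were those given above, and the median of the 16 was 0.13 with day.

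Hormone receptors and response genes were set beside the members because KLF9 and KLF15 are known targets or partners of steroid receptors. Pgr, the progesterone receptor, was the 1 gene of 5 receptors called, at 2.72 ± 0.51 in WT day 4 against day 1. Of 10 glucocorticoid and progestin response genes, 7 rose and 2 fell with day, and their median was 2.28, against 0.30 over all genes. Of all genes, 7.58% were called higher and 5.73% lower with day. Tsc22d3, which carries out anti-inflammatory effects of glucocorticoids, rose by 3.54 ± 0.25 and the transcription factor Zbtb16 by 4.16 ± 0.29, while the stress gene Ddit4 fell by 2.43 ± 0.21. Between genotypes 0 of the 10 passed in limma's default fit, with 4 at an unadjusted p under 0.05 and 3 called higher with an intensity trend. The shares of all genes there were 0%, 13.2% and, with the trend in either direction, 3.52%. The kinase gene Sgk1 had the smallest p of the 10 (1.84 ± 0.24, adjusted p = 0.161), followed by Ddit4 (1.30 ± 0.21, adjusted p = 0.186) and Cebpd, a C/EBP transcription factor (1.21 ± 0.31, adjusted p = 0.269), and these were the 3 called with the trend. Zbtb16 was at -0.99 ± 0.29 (adjusted p = 0.298).

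Of 10 DNA replication licensing genes, to which the KLF15 target Mcm2 belongs, 1 rose with day (Mcm3, at 1.08 ± 0.20). Mcm2 was at 1.12 ± 0.24 with day (adjusted p = 0.0548), and the list had a median of 0.92. Of 5 metabolic genes known as KLF15 targets in liver, muscle or fat, the alanine transaminase Gpt rose with day (1.93 ± 0.29), and between genotypes the proline oxidase Prodh had the smallest p (2.10 ± 0.45, adjusted p = 0.228), while Gpt was at -0.28 ± 0.29. In the TGF-beta list, 1 of 13 genes rose and 3 fell with day. Skil, a feedback inhibitor of SMADs, fell by 2.27 ± 0.28, the ligand Tgfb3 by 3.11 ± 0.42 (down to low signals of 11.7 and 6.10 on day 4, so of uncertain size) and the receptor Tgfbr1 by 1.16 ± 0.24, whereas the coreceptor Tgfbr3 rose by 2.11 ± 0.34. In these 3 lists 0 genes passed between genotypes in limma's default fit, where 2, 1 and 2 reached an unadjusted p under 0.05 and the intensity trend called 0, 1 and 0. Of all genes, 7.58% were called higher and 5.73% lower with day. Between genotypes 0% were called, 13.2% reached an unadjusted p under 0.05 and the intensity trend called 3.52%.

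Klf2, Klf4, Klf6 and Klf10 are also early genes that respond to tissue handling, and the epithelium was separated with enzymes up to 37°C. Of 15 immediate early and dissociation response genes, 1 rose and 2 fell with day, where 7.58% and 5.73% of all genes did, with a median of -0.44. Their signals summed to 219733 and 208309 in heterozygotes, 174858 and 191699 in WT on day 4, and 242846 and 240320 in WT on day 1. The summed list was ordered like Klf4, Klf6 and the group means of Klf10, lowest in WT on day 4 and highest on day 1. Klf2 was not so ordered, being lowest in heterozygotes. Single genes of the list differed in direction: Nr4a1 rose with day (1.55 ± 0.19), while Ier3 (-2.27 ± 0.26) and Hspa1a (-2.11 ± 0.36) fell. Between genotypes 0 of the 15 passed in limma's default fit, with 2 at an unadjusted p under 0.05 (13.2% of all genes). The intensity trend called Ier3 (1.07 ± 0.26) and Hspa1a (1.27 ± 0.36) higher and 0 lower, where 3.52% of all genes were called. The list median between genotypes was 0.30, against -0.20 over all genes. The part of this list in the Klf values was not tested. The 11 endothelial markers, beside which Klf2 may be read, summed to 431 and 519 in heterozygotes, 637 and 1024 in WT on day 4, and 475 and 616 in WT on day 1. The sum of 1024 was that of array 277, which stood apart in the dim range. Of 7 endothelial targets of KLF2 and KLF4, the receptor S1pr1 rose with day (2.27 ± 0.44, adjusted p = 0.0442), with a list median of 0.31, and the other 6 did not pass. S1pr1 read 390 and 185 in WT on day 4, the 390 on array 277, and 51.2 and 58.8 on day 1. Between genotypes 0 of the 7 passed, in the default fit or with an intensity trend. Nos3 (-1.56 ± 0.39) and S1pr1 (-1.46 ± 0.44) had an unadjusted p under 0.05, as did 13.2% of all genes. The list median was -1.06, against -0.20 over all genes. The list was not split by direction of regulation.

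Sums of stroma, smooth muscle and macrophage markers differed between the groups as well, and the part of other cells in the Klf values was not tested. The 10 stroma markers summed to 1135 and 1682 in heterozygotes, 2369 and 3222 in WT on day 4, and 13108 and 18897 in WT on day 1. Most of the day 1 sums came from Fbln1, which read 648 and 777, 618 and 379, and 9585 and 9945 in the same order and fell with day (-4.33 ± 0.31). The median change of the stroma list was -1.16, and Hoxa11, Hand2, Pdgfra and Col1a1 were above 0, at 0.06 to 1.15, without passing (these 4 were named after their values were seen). Among the other lists, 1 of 6 smooth muscle markers fell (Acta2, at -1.60 ± 0.23), and 0 of 11 endothelial markers were called with day, with 2 at an unadjusted p under 0.05 and 1 called with an intensity trend. The 9 macrophage markers summed to 13742 and 14389 in heterozygotes, 17056 and 17229 in WT on day 4, and 21135 and 22590 in WT on day 1, with 2 called higher and 1 lower with day and a median log2 change of 1.32, opposite in sign to the sums. Most of every sum came from Cd14, at -0.05 ± 0.19 with day, and on day 1 Cd68 added 6401 and 5746. With day Cd68 fell (-5.01 ± 0.39), whereas Lyz2 (2.42 ± 0.25) and C1qa (3.18 ± 0.59) rose. Lymphocyte markers (6 measured) summed to 156 to 192, 291 to 740 and 295 to 353, neutrophil markers (5 measured) to 63 to 86, 139 to 260 and 108 to 186, and gland markers (4 measured) to 429 to 611, 145 to 553 and 404 to 1165 in the same order of groups. In all of these lists the higher WT day 4 sum was that of array 277, which stood apart in the dim range. In each of these 3 lists at most 1 gene was called with day, and no gene of any cell type list passed between genotypes in the default fit. At most 2 genes of a list had an unadjusted p under 0.05 there, and the intensity trend called at most 2. The shares among all genes were those given for the first and second comparisons.

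Over the 6 arrays, the genes whose centred log2 values lay closest to those of Klf15 among 8885 brighter genes were the sulfotransferase Sult1a1 (Euclidean distance 1.00), the glutathione transferase Gstm7 (1.15) and the sphingolipid synthesis gene Sptlc3 (1.19). These distances are set largely by low day 1 signals, whose size depends on the pseudocount, and are only a description. Sult1a1 read 4110 and 3826 in heterozygotes, 2915 and 2782 in WT on day 4, and 22.1 and 47.4 in WT on day 1. Closest to Klf9 were the mitochondrial ribosome gene Mrpl19 (0.21), the iron-sulfur cluster gene Glrx5 (0.27) and Hibch (0.27), an enzyme of valine breakdown. Hibch read 738 and 707 in heterozygotes, 1395 and 1253 in WT on day 4, and 410 and 415 in WT on day 1. These genes were picked for this likeness, so their shared order of groups is no result.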

How the data were processed

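Uterine epithelium was separated with pancreatin and dispase, and biotin-labelled RNA, amplified from 100 ng, was hybridised to Affymetrix arrays of 1 colour, per the labels' protocols. The authors deposited signal values, a linear intensity per probe set. The submitters' processing notes list RMA, Transcriptome Analysis Console and Affymetrix Expression Console, with no role for any. Every array had a 2% trimmed mean of 500.003 and their distributions differed, so the values are not quantile-normalized log2 values. Signals under 50 were treated as low, since no detection calls were used.

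Of 45101 probe sets, 34945 with 1 platform symbol were used. Titles gave the groups. limma 3.58.1 in R 4.3.3 fitted log2(signal + 1) of the 6 arrays with 1 coefficient per group, leaving 3 residual degrees of freedom, with no filter and Benjamini-Hochberg adjustment over 18193 genes. Values of further probe sets come from 1 fit over all 34945. No permutation test was run, because 2 arrays against 2 allow no exact p below 0.333. The fits were tested on simulated data. The text names all Klf genes, Sox17, the genes with the smallest p-values in each list (up to 4), and the 3 nearest genes by Euclidean distance over the 6 arrays (mean signal of at least 200). The members and lists were chosen with earlier results of these data known. Alternatives covered normalization, spread model, probe set summary, filter, pseudocount, threshold and arrays left out.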

Additional observations from a re-analysis of the deposited data

How the results depend on the processing

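Each result was refitted under 25 alternatives, of which those that join an intensity trend with leaving out an array were chosen after seeing the data. For these joined fits the share of all genes called is not given here, so their Klf counts have no background. The count of 4 Klf genes called for WT day 4 against day 1 was 2 with equal array medians (710 genes higher and 865 lower in all, against 1379 and 1042), 2 when probe sets of a gene were averaged, 1 with the 4 arrays compared only (337 and 279), 7 with an intensity trend (2538 and 1968), 0 to 5 leaving out 1 array, and 6 to 7 with both. The count of 0 for heterozygous against WT on day 4 was 1 with an intensity trend (351 and 289 genes in all, against 0 and 0), 0 in each fit without a trend that left out an array, and 0 to 3 with both. The trend with equal medians called 142 and 73 genes there, leaving out the dimmest genes 3 and 8, and a pseudocount of 32 called 1 and 3. The count of 2 for heterozygous against WT day 1 was 6 with an intensity trend (2124 and 1756 genes, against 922 and 815), 5 without the dimmest genes (1776 and 1419), 0 to 2 leaving out 1 array, and 3 to 6 with both. Array weights moved the counts of all genes to 771 and 660 with day and to 1779 and 1605 in this comparison. The cause was not tested. The changes with day kept their direction in all alternatives run, except Klf2. Averaging probe sets reversed heterozygous against WT day 4 for Klf3 (-0.12) and Klf13 (0.31), and against WT day 1 for Klf5 (0.47) and Klf13 (0.62). Leaving out 1 array, with or without a trend, gave Klf2 with day -0.88 to 0.71, Klf7 between genotypes -0.53 to 0.11, and Klf13 against WT day 1 -0.19 to 0.061, the reversed values being those without day 1 array 303, day 4 array 277 and heterozygous array 253. Quantile normalization gave a median of all genes with day of 0.07, against 0.30, and of the Klf genes of -0.51. With it 6 Klf genes were called with day, Klf4 and Klf10 beside the 4 of the default fit. In all, 1487 genes were then called higher and 1431 lower. No paired analysis was possible because the groups share no replicate numbers. Dim signals limit Klf15 on day 1, since no background measure was used.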
